A study of Mus musculus with 2 samples.

Results

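The 10 genes described here mark the sinusoidal endothelium of the liver and its change towards ordinary capillary endothelium. They were chosen by name: a probe belonged to the set when its gene name on the arrays was 1 of the 10 symbols or a synonym of it. All 10 genes were present, with 13 of the 39429 non-control probes, against 22803 genes named on the arrays in all. Liver RNA of C57BL/6 mice was measured on 2 Agilent 2-colour arrays, 1 per genotype. The 4 RNAs were a thioacetamide-treated AID transgenic liver (Cy5), an untreated AID transgenic liver (Cy3), a treated wild-type liver (Cy5) and an untreated wild-type liver (Cy3). Treatment was 6 months of thioacetamide, a hepatotoxin used to produce fibrosis, in the drinking water. AID is activation-induced cytidine deaminase, a DNA-editing enzyme of B cells, and no source used here names the promoter of its transgene. Nor do the labels say whether an RNA came from 1 animal or a pool, or give the age or sex of the mice.

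Sinusoidal endothelial cells line the liver's exchange vessels, have open pores and no complete basement membrane, and clear waste molecules from blood through scavenger receptors. During chronic injury they can lose these pores and receptors and take on markers of continuous capillaries such as CD34 and von Willebrand factor, which is called capillarization. New vessel sprouts are led by tip cells, which respond to vascular endothelial growth factor (VEGF) and are known to express Esm1, Dll4 and Angpt2.

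With 1 array per genotype and no dye swap, no difference has a replicate check and no p-value is given. Each log2 ratio is treated over untreated on 1 array, and the error after ± is technical, taken from the scanner's error model for that spot, on the log2 scale. The median SD of the log2 ratio between spots of 1 probe was 0.07 on either array, over 399 probes with 10 spots. A gene is counted when its log2 value is at least 1 in size, which is 2-fold. The treated wild-type liver also differed from the untreated one in sex-linked transcripts. Xist, the RNA of the inactive X chromosome, was at least 6.18-fold higher in it, and the Y-linked Ddx3y and Eif2s3y were at least 17.6-fold and 32.1-fold lower. In AID transgenic mice Ddx3y and Eif2s3y had log2 ratios of -0.11 ± 0.20 and -0.05 ± 0.20. Sex and treatment cannot be told apart in any value that uses the treated wild-type liver. In liver RNA, fewer cells of a type and less RNA per cell cannot be told apart either. The hepatocyte marker genes measured, among them Alb and Ttr, were well above background in all 4 RNAs, and so were 12 of the 13 endothelial probes.

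Esm1 and Cd34 are the members with the largest ratios, and the sequences below show which stretch of each transcript their probes read. Each probe has 60 bases, of which the first 30 are printed, 5′ to 3′. The Esm1 probe lies at chr13:114008204-114008263 on the plus strand of mm9, the build named in the file headers. The Cd34 probes lie at chr1:196787392-196787451 (probe 1) and chr1:196785280-196785339 (probe 2), on the plus strand, 2112 bases apart. The files assign both Cd34 probes to the same transcript, and whether a probe lies in coding or untranslated sequence is not given there.
Esm1: aatgtactcgtgggaagatccgtgaatgta
Cd34 probe 1: ccagagatgagaggattgggtgtattctct
Cd34 probe 2: taaacaagatatcgggagccaccagagcta

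The 250 bases before the start of each of these genes, from RefSeq on GRCm38.p6, are shown because their levels parted between the arrays. Capitals mark GGAA, or TTCC for the other strand, the core of the sites bound by ETS factors, a family with known roles in endothelial cells. Esm1 (chr13:113209409-113209658, plus strand) held 3 such cores and Cd34 (chr1:194938571-194938820, plus strand) held 5. At least 1 core stood in 93.4% of 32851 promoter windows of this length, at least 3 in 54.7% and at least 5 in 18% of them, so these counts set neither gene apart. A match is a run of letters and not a bound site.
Esm1 promoter: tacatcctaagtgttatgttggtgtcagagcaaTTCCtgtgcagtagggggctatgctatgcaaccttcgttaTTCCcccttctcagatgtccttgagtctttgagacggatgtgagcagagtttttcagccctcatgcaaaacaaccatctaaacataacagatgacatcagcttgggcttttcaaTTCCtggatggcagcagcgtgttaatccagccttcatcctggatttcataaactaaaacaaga
Cd34 promoter: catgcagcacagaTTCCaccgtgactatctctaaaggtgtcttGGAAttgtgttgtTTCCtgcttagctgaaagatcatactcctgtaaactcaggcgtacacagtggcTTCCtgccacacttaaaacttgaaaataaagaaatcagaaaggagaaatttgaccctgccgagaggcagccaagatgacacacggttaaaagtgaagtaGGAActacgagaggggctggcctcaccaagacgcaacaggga

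After thioacetamide, 9 of the 10 markers stayed within 2-fold of the untreated liver in AID transgenic mice, and 9 of 10 did so in wild-type mice. The exception on both arrays was Esm1, in opposite directions. Cd34 was within 2-fold in wild-type mice only as the mean of its probes. Its bright probe had 1.22 ± 0.25 there, and its other probe was not well above background. In AID transgenic mice 1 member was at least 2-fold higher and 0 were lower, where 1.22% of 16693 genes tested were higher and 0.947% lower. In wild-type mice 0 members were higher and 1 was lower, where 1.86% of 16663 genes were higher and 1.64% lower. The members' median log2 ratio was -0.10 in AID transgenic and -0.12 in wild-type mice, against 0.03 for all genes on each array.

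The sign of these small medians depended on the scaling within the array. With median centring in place of loess, all genes shifted to medians of 0.34 on the AID transgenic and 0.35 on the wild-type array, and the members' medians were 0.59 and 0.53. Relative to all genes the members thus stood 0.24 and 0.18 above with median centring, and 0.13 and 0.15 below with loess. The direction of the members' median relative to all genes was thus not settled. Single members could keep theirs: in AID transgenic mice Lyve1 had 0.48 with loess and 0.90 with median centring, and Stab2 had 0.30 and 0.99, above the median of all genes under both. The share of 2-fold calls that were higher was 56.2% in AID transgenic and 53.1% in wild-type mice with loess, and 96.2% and 94.4% with median centring.

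**Figure D1:**
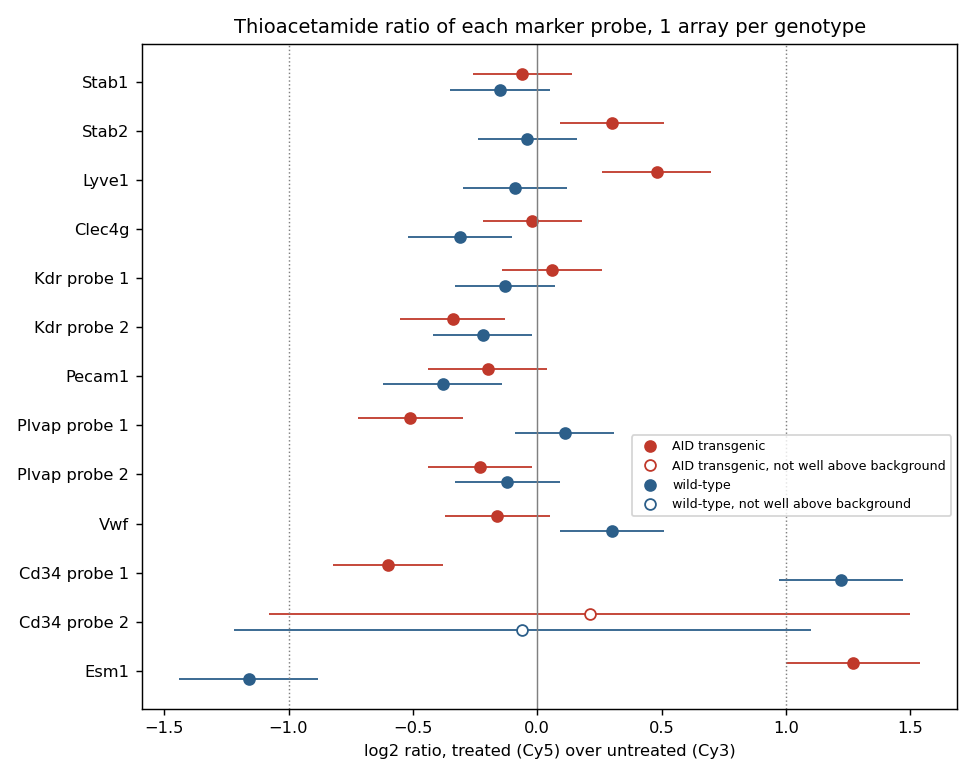
Log2 ratio of treated over untreated liver for each of the 13 marker probes, with AID transgenic in red above wild-type in blue. Bars are the scanner software's error of the spot, dotted lines mark 2-fold, open circles mark probes not well above background, and Esm1 lies past 2-fold on opposite sides on the arrays.

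Among the scavenger receptors and lectins that define sinusoidal cells, none of 4 reached 2-fold on either array. Stab1, a scavenger receptor shared with some macrophages, had a log2 level of 10.68 in the treated and 10.74 in the untreated AID transgenic liver. In wild-type mice its level was 10.59 in the treated and 10.74 in the untreated liver. Its ratios were therefore -0.06 ± 0.20 in AID transgenic and -0.15 ± 0.20 in wild-type mice, both within the spot error.

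Stab2, the hyaluronan-clearing scavenger receptor, had log2 levels of 12.15 in the treated and 11.85 in the untreated AID transgenic liver, and of 11.79 and 11.83 in the treated and untreated wild-type livers. The treated AID transgenic liver was the highest of the 4, at a ratio of 0.30 ± 0.21, and the other 3 lay close together. Lyve1, a hyaluronan receptor of sinusoidal and lymphatic endothelium, was also highest in the treated AID transgenic liver. Its levels were 8.15 in the treated and 7.68 in the untreated AID transgenic liver, and 7.66 and 7.75 in the treated and untreated wild-type livers. The ratio was 0.48 ± 0.22 in AID transgenic and -0.09 ± 0.21 in wild-type mice, a difference of 0.57 ± 0.30.

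Clec4g, the lectin LSECtin of sinusoidal cells, was lowest in the treated wild-type liver. Its log2 levels were 13.28 in the treated and 13.30 in the untreated AID transgenic liver, and 13.17 and 13.48 in the treated and untreated wild-type livers. The ratios were -0.02 ± 0.20 in AID transgenic and -0.31 ± 0.21 in wild-type mice. All 4 receptors and lectins had a higher treatment ratio in AID transgenic than in wild-type mice, by 0.09 to 0.57 (median 0.32, against 0 for all genes). For Stab1 and Clec4g this difference did not go past its spot error of 0.29 to 2 decimals. The direction was not particular to these genes. Of 18 genes common to endothelial cells, 14 also had a higher ratio in AID transgenic mice (median difference 0.17). Of 17 other sinusoidal genes 10 did so and 7 had a lower one (median 0.17).

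Other genes of sinusoidal cells were likewise within 2-fold. Of 17 such genes outside the 10 markers, 0 were at least 2-fold higher and 0 lower on either array, and the medians were -0.03 in AID transgenic and -0.13 in wild-type mice. Of all genes 1.22% were higher and 0.947% lower in AID transgenic mice, and 1.86% and 1.64% in wild-type mice. A count of 0 therefore does not set this list apart, and the same shares apply to the treatment ratios of the lists below. With the scanner's processed signals or with median centring 1 of the 17 was higher on each array. The mannose receptor gene Mrc1 had 0.29 ± 0.21 in AID transgenic and -0.13 ± 0.20 in wild-type mice, and the inhibitory Fc receptor gene Fcgr2b had 0.28 ± 0.21 and -0.13 ± 0.20. Gata4, a transcription factor of sinusoidal identity, had the highest AID transgenic ratio at 0.53 ± 0.21, against 0.16 ± 0.21 in wild-type mice. Bmp2, a ligand by which these cells control hepatic iron handling, and Ehd3 had the lowest AID transgenic ratios at -0.58 ± 0.21 and -0.48 ± 0.21. In wild-type mice these were -0.24 ± 0.21 and -0.04 ± 0.20. Rspo3, an enhancer of Wnt signalling, had -0.18 ± 0.21 in AID transgenic and 0.50 ± 0.21 in wild-type mice, the highest wild-type ratio of the list. The lowest wild-type ratios were those of the nuclease gene Dnase1l3 at -0.37 ± 0.21 and the receptor gene Gpr182 at -0.34 ± 0.21, against -0.16 ± 0.21 and 0.06 ± 0.20 in AID transgenic mice.

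Stab1, Lyve1 and Mrc1 are also expressed by macrophages, whose markers had higher ratios in AID transgenic mice. Of 11 macrophage and Kupffer cell markers 3 were at least 2-fold higher in AID transgenic mice and 0 in wild-type mice, with medians of 0.88 and 0.01. Vsig4, a complement receptor of Kupffer cells, had 1.12 ± 0.23 in AID transgenic and 0.71 ± 0.22 in wild-type mice, and Cd5l had 1.48 ± 0.25 and 0.15 ± 0.20. The scavenger receptor gene Marco was higher in AID transgenic than wild-type mice in treated and in untreated livers, by 2.42 and 2.54 on the log2 scale. The part of these cells in the ratios of the shared genes was not tested.

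The VEGF receptor and the junction marker were also within 2-fold on both arrays. Kdr encodes VEGFR2, the main signalling receptor for VEGF, and was read by 2 probes. Probe 1 had 10 spots, of which 1 on each array was left out as an outlier, and over the rest its ratio was 0.06 (SD of 0.021 between spots) in AID transgenic and -0.13 (SD of 0.033) in wild-type mice. Probe 2 had -0.34 ± 0.21 and -0.22 ± 0.20, so the probes differed in sign in AID transgenic mice. Pecam1, the junction protein CD31, had log2 levels of 7.03 in the treated and 7.23 in the untreated AID transgenic liver, and 6.95 and 7.32 in the treated and untreated wild-type livers. Its ratios were -0.20 ± 0.24 in AID transgenic and -0.38 ± 0.24 in wild-type mice, with the untreated liver higher in both.

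Of 18 other genes common to endothelial cells, 0 reached 2-fold on either array, with medians of 0.04 in AID transgenic and -0.05 in wild-type mice. The highest was S1pr1, a receptor for sphingosine 1-phosphate, at 0.91 ± 0.22 in AID transgenic and 0.80 ± 0.22 in wild-type mice. It was followed by the ETS factor gene Fli1 in both, at 0.40 ± 0.22 and 0.17 ± 0.21. The lowest in AID transgenic mice were Cd93 at -0.32 ± 0.21 and the TGF beta co-receptor gene Eng at -0.30 ± 0.21, and in wild-type mice Eng at -0.42 ± 0.21 and the adhesion gene Esam at -0.36 ± 0.21. Cdh5, the cadherin of endothelial junctions, had 0.20 ± 0.21 in AID transgenic and -0.14 ± 0.21 in wild-type mice. With median centring 1 gene of this list was at least 2-fold higher on each array. The genes of the endothelial lists nearest to the members' 2 medians were Adam23, Notch4 and Jag1. Their Euclidean distances in the 2 ratios were 0.02, 0.032 and 0.051, among 64 genes well above background in all 4 RNAs.

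**Figure D2:**
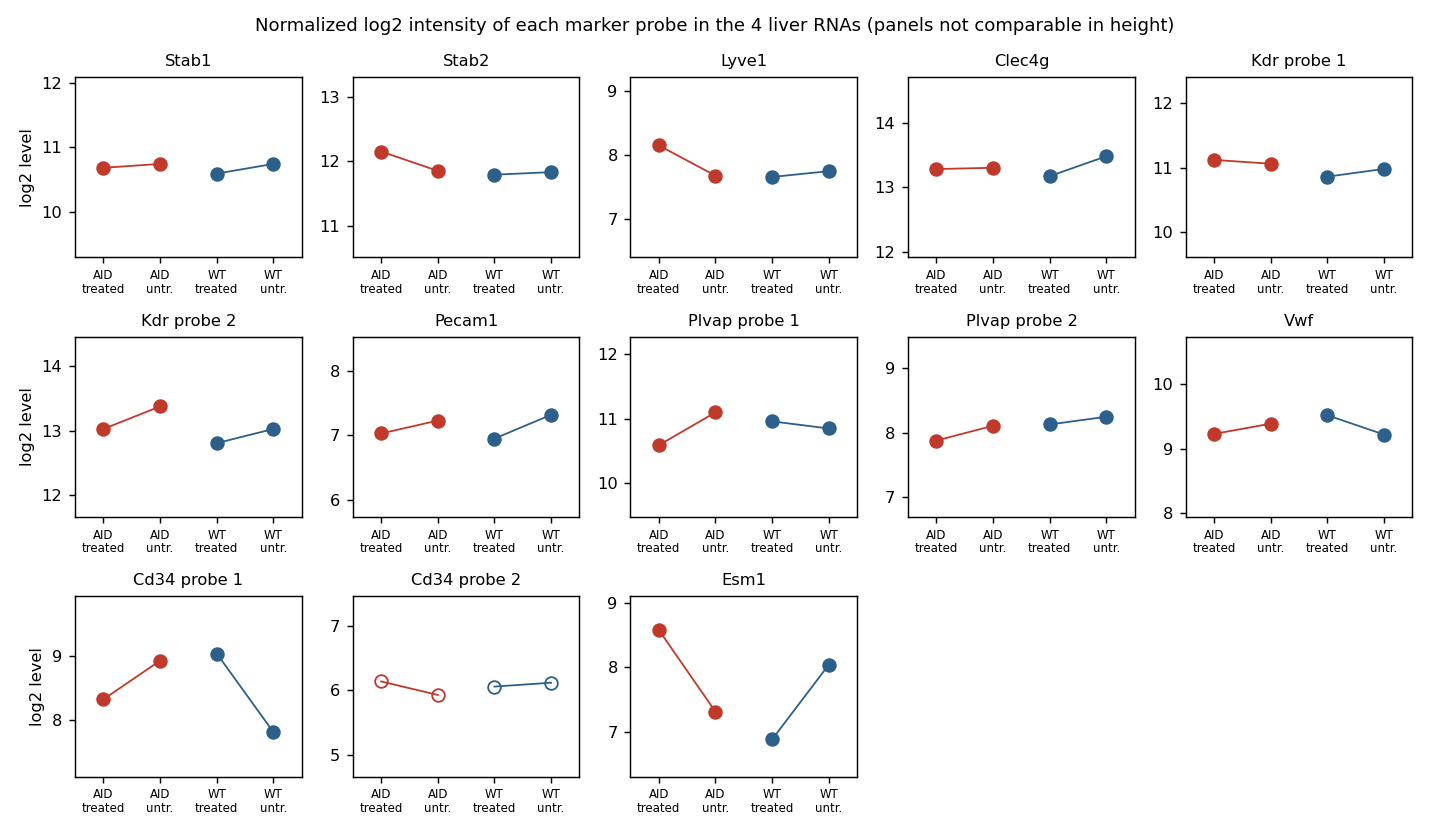
Normalized log2 intensity of each marker probe in the treated and untreated AID transgenic livers (red) and the treated and untreated wild-type livers (blue), with a line joining the channels of 1 array. Every panel spans the same range of 2.8 log2 units around the probe's own mean, open circles are not well above background, and the lines of Esm1 and of Cd34 probe 1 are the steepest, each sloping in opposite directions on the arrays.

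Plvap, Vwf and Cd34 each had a lower treatment ratio in AID transgenic than in wild-type mice, and Esm1 had a higher one. The gene differences were -0.36 ± 0.21 for Plvap, -0.46 ± 0.29 for Vwf and -0.78 ± 0.88 for Cd34, the last within its error. Plvap forms the diaphragms of endothelial pores and caveolae. Its probe 1 had log2 levels of 10.59 in the treated and 11.10 in the untreated AID transgenic liver, and 10.96 and 10.85 in the treated and untreated wild-type livers. The treated AID transgenic liver was the lowest, with a ratio of -0.51 ± 0.21, against 0.11 ± 0.20 in wild-type mice. Probe 2 had -0.23 ± 0.21 in AID transgenic and -0.12 ± 0.21 in wild-type mice, and the gene's difference of -0.36 ± 0.21 rested mainly on probe 1.

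Vwf encodes the glycoprotein that tethers platelets to the vessel wall. Its log2 levels were 9.23 in the treated and 9.39 in the untreated AID transgenic liver, and 9.52 and 9.22 in the treated and untreated wild-type livers. The treated wild-type liver was the highest, with a ratio of 0.30 ± 0.21, against -0.16 ± 0.21 in AID transgenic mice, and the difference was -0.46 ± 0.29. Platelets and their precursors also hold Vwf transcripts, and of their 6 markers, 5 of them measured in wild-type mice, 0 reached 2-fold on either array. The count says little about most of these markers, as only Pf4 was well above background in all 4 RNAs. Its wild-type ratio, the highest of the markers measured, was 0.42 ± 0.21, against -0.20 ± 0.21 in AID transgenic mice. The part of platelets in the Vwf values was not tested.

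Cd34, the sialomucin that normal sinusoids largely lack, was higher in the treated than the untreated liver of wild-type mice by its bright probe. Probe 1 had log2 levels of 8.32 in the treated and 8.92 in the untreated AID transgenic liver, and 9.03 and 7.81 in the treated and untreated wild-type livers. The untreated wild-type liver was the lowest of the 4, and the untreated AID transgenic liver was near the treated wild-type one. The wild-type ratio was 1.22 ± 0.25, which is 2.33-fold, and the AID transgenic ratio was -0.60 ± 0.22, which is 1.52-fold lower. Probe 2 was not well above background in any of the 4 RNAs and gave 0.21 ± 1.29 in AID transgenic and -0.06 ± 1.16 in wild-type mice. As the mean of both probes, Cd34 had -0.20 ± 0.65 and 0.58 ± 0.59, so it was not counted at 2-fold, and it was counted in wild-type mice when the dim probe was left out. With median centring probe 1 had -0.06 in AID transgenic and 1.76 in wild-type mice.

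Set between genotypes, Cd34 probe 1 was 1.63-fold lower in the treated AID transgenic than the treated wild-type liver (log2 -0.70 ± 0.20), and 2.17-fold higher in the untreated AID transgenic than the untreated wild-type liver (1.12 ± 0.21). The difference between the treatment ratios, -1.82 ± 0.33, therefore came in larger part from the untreated livers. Of 6 lymphatic markers 2, and of 10 stellate cell and myofibroblast markers 3, were also at least 2-fold higher in the untreated AID transgenic than the untreated wild-type liver, and 0 were lower, with medians of 0.12 and 0.24. Over all 14297 genes tested in the untreated livers, 0.308% were at least 2-fold higher and 0.294% lower. The lymphatic chemokine gene Ccl21a was higher by 2.06 ± 0.20, the smooth muscle actin gene Acta2 by 1.41 and the calponin gene Cnn1 by 1.34 on the log2 scale. Mmrn1, of lymphatic and venous endothelium and platelets, was at least 2.49-fold higher, as it was not well above background in the untreated wild-type liver. The other lymphatic markers lay between -0.39 ± 0.22 for Prox1 and 0.23 ± 1.05 for Pdpn, and the lowest of the stellate list was Lrat at -0.23 ± 0.21. The part of these cells in the Cd34 values was not tested.

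Esm1, the secreted proteoglycan endocan, was higher in the treated AID transgenic liver and lower in the treated wild-type liver than in their untreated counterparts. Its single probe was well above background in all 4 RNAs, with log2 levels of 8.58 in the treated and 7.31 in the untreated AID transgenic liver, and 6.88 and 8.04 in the treated and untreated wild-type livers. The treated AID transgenic liver was the highest and the treated wild-type liver the lowest. The probe had 1 spot on each array, and its signals were low. Before normalization, mean signal less local background was 437 in the treated and 66.7 in the untreated AID transgenic liver. In the treated and untreated wild-type livers it was 102 and 164. The ratios were 1.27 ± 0.27 in AID transgenic mice, 2.42-fold higher, and -1.16 ± 0.28 in wild-type mice, 2.24-fold lower. In AID transgenic mice 105 of 16693 genes had a higher ratio, and in wild-type mice 207 of 16663 had a lower one.

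The difference between the Esm1 ratios, AID transgenic minus wild-type, was 2.44 ± 0.39, or 5.41-fold. It was exceeded by 17 of 17107 genes, and it was the only member counted, with 0 counted as lower, where 0.929% of genes were higher and 1.05% lower. Between the treated livers Esm1 was 3.25-fold higher in AID transgenic than wild-type mice (log2 1.70 ± 0.21), and between the untreated livers it was 1.66-fold lower (-0.74 ± 0.23). It was the 1 member at least 2-fold different between the treated livers, where 0.738% of 17079 genes were higher and 0.761% lower, and 0 members were so between the untreated livers, where 0.308% of 14297 genes were higher and 0.294% lower. The Esm1 difference ranged from 2.44 to 3.81 over the normalizations tried. Opposite directions at 2-fold on the arrays, higher in AID transgenic and lower in wild-type mice, were seen for 4 of 16249 genes, which were Esm1, Nat8f5 and the serum amyloid genes Saa1 and Saa2.

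**Figure D3:**
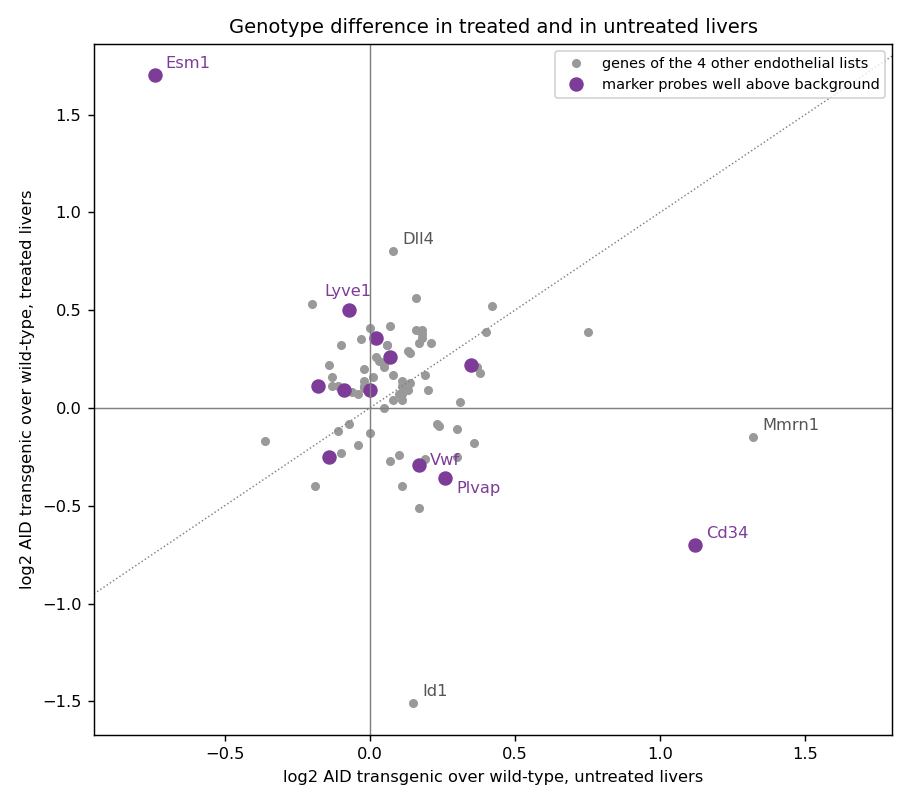
Log2 AID transgenic over wild-type in the treated livers (vertical) against the untreated livers (horizontal) for the 12 marker probes well above background (purple) and the genes of the 4 other endothelial lists (grey). The dotted line marks equal values, and Esm1 at -0.74 and 1.70 and Cd34 probe 1 at 1.12 and -0.70 lie far from it on opposite sides.

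Among other genes of sprouting and vessel growth, Dll4 and Angpt2 had higher ratios in AID transgenic than wild-type mice. The list as a whole did not lean that way. Of 26 genes measured 11 had a higher ratio in AID transgenic mice and 15 a lower one, with a median difference of -0.02. Dll4, the Notch ligand of tip cells, had log2 levels of 8.05 in the treated and 7.02 in the untreated AID transgenic liver, and 7.25 and 6.95 in the treated and untreated wild-type livers. The treated AID transgenic liver was the highest, with a ratio of 1.03 ± 0.26, against 0.31 ± 0.24 in wild-type mice. Angpt2, a tip cell ligand of the receptor Tie2, had 0.42 ± 0.28 and -0.32 ± 0.28. Its signals were low, with log2 levels of 7.10 in the treated and 6.68 in the untreated AID transgenic liver. In the treated and untreated wild-type livers they were 6.57 and 6.88. Dll4, Angpt2 and Id1 were the genes of the list whose ratios differed most between genotypes. Apln, another tip cell gene, was not well above background in any of the 4 RNAs. Id1, a target of BMP signalling also expressed by hepatocytes, had 0.91 ± 0.23 in AID transgenic and 2.57 ± 0.33 in wild-type mice, the opposite order.

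Of the 26 measured ligands, receptors and flow regulators, 1 was at least 2-fold higher on each array, Dll4 in AID transgenic and Id1 in wild-type mice, and 0 were lower. The number higher on each array was 2 with a normexp offset of 0 and 5 with the scanner's processed signals. In the main setting the medians were 0.04 in AID transgenic and 0.02 in wild-type mice, against 0.03 for all genes on each. Vegfa, the main ligand of Kdr, had 0.11 ± 0.14 in AID transgenic and -0.04 ± 0.14 in wild-type mice. Vegfd had 0.09 ± 0.21 and 0.63 ± 0.22. Flt1, a VEGF decoy receptor, had -0.33 ± 0.21 and -0.46 ± 0.21, the lowest wild-type ratio, and the endothelin receptor gene Ednrb had the lowest AID transgenic ratio at -0.49 ± 0.19, against 0.06 ± 0.17. Nos3 and Klf2, which respond to blood flow in endothelium, were within their errors of 0 on the AID transgenic array, at 0.00 ± 0.15 and -0.05 ± 0.20. On the wild-type array they had 0.01 ± 0.15 and -0.23 ± 0.21.

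Genes of capillary, arterial and venous endothelium were mixed. Of 18 measured, 1 was at least 2-fold higher and 1 lower in AID transgenic mice, Dll4 and Mmrn1, and 1 was higher and 0 lower in wild-type mice. Mmrn1 had -1.55 ± 0.42 in AID transgenic and -0.09 ± 0.64 in wild-type mice. The gene counted in wild-type mice was Ly6c1, of capillary endothelium and monocytes, at 1.16 ± 0.20, against 0.64 ± 0.20 in AID transgenic mice, but its 2 probes differed with an SD of 1.53 and of 0.75. Ly6a, another surface antigen of capillary endothelium, had 0.84 ± 0.22 in AID transgenic and 0.85 ± 0.22 in wild-type mice. The adhesion molecule gene Icam1 had 0.48 ± 0.28 and 0.32 ± 0.29. With the scanner's processed signals 3 genes of this list were at least 2-fold higher on each array.

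Basement membrane genes, whose products are laid down under capillarized sinusoids, did not reach 2-fold on either array in any of 13 cases. Their medians were -0.10 in AID transgenic and 0.01 in wild-type mice. With median centring 3 of them were at least 2-fold higher in wild-type mice. With the scanner's processed signals 1 was lower in AID transgenic mice. Lamb1, a laminin chain, had -0.10 ± 0.21 and 0.68 ± 0.22, and the matrix protein gene Sparc had -0.29 ± 0.15 and 0.44 ± 0.15. Col4a1, a collagen of basement membranes, had -0.29 ± 0.21 and 0.19 ± 0.21. The laminin chain gene Lamb2 had the lowest AID transgenic ratio, -0.41 ± 0.26 against -0.15 ± 0.24, and Lama4 the highest, 0.31 ± 0.22 against -0.12 ± 0.21. Col18a1, the source of endostatin, had the lowest wild-type ratio, with -0.19 ± 0.14 in AID transgenic and -0.34 ± 0.15 in wild-type mice. Of the 13 genes, 10 had a lower ratio in AID transgenic than in wild-type mice, with a median difference of -0.14 against 0 for all genes.

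Of 6 lymphatic markers, a cell type that shares Lyve1 with the sinusoids, 2 were at least 2-fold lower in AID transgenic and 0 in wild-type mice. These were Mmrn1 and Ccl21a, with Ccl21a at -2.15 ± 0.30 in AID transgenic and -0.64 ± 0.22 in wild-type mice. Both were highest in the untreated AID transgenic liver. Log2 levels of Ccl21a were 9.11 in the treated and 11.26 in the untreated AID transgenic liver. In the treated and untreated wild-type livers they were 8.56 and 9.20. Prox1, a lymphatic transcription factor also expressed by hepatocytes, had 0.94 ± 0.24 and 0.23 ± 0.21. Stellate cell and myofibroblast markers were at least 2-fold lower for 3 of 10 genes in AID transgenic mice and for 0 in wild-type mice, with medians of -0.42 and -0.14. Over all genes 0.947% were at least 2-fold lower in AID transgenic and 1.64% in wild-type mice. The 3 genes were the contractile Cnn1, Acta2 and Myl9. All 3 were highest in the untreated AID transgenic liver, above the untreated wild-type one by 1.34, 1.41 and 1.06 on the log2 scale. Between the treated livers, AID transgenic over wild-type, they had -0.40, -0.16 and -0.40. Acta2 had -1.89 ± 0.29 in AID transgenic and -0.32 ± 0.21 in wild-type mice, and Myl9 had -1.63 ± 0.26 and -0.18 ± 0.21. Pdgfrb, a growth factor receptor of these cells, had 0.06 ± 0.21 and 0.68 ± 0.22, and Lrat, which esterifies retinol in stellate cells, had -0.53 ± 0.22 and 0.80 ± 0.22. The part of these cell types in the endothelial values was not tested.

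**Figure D4:**
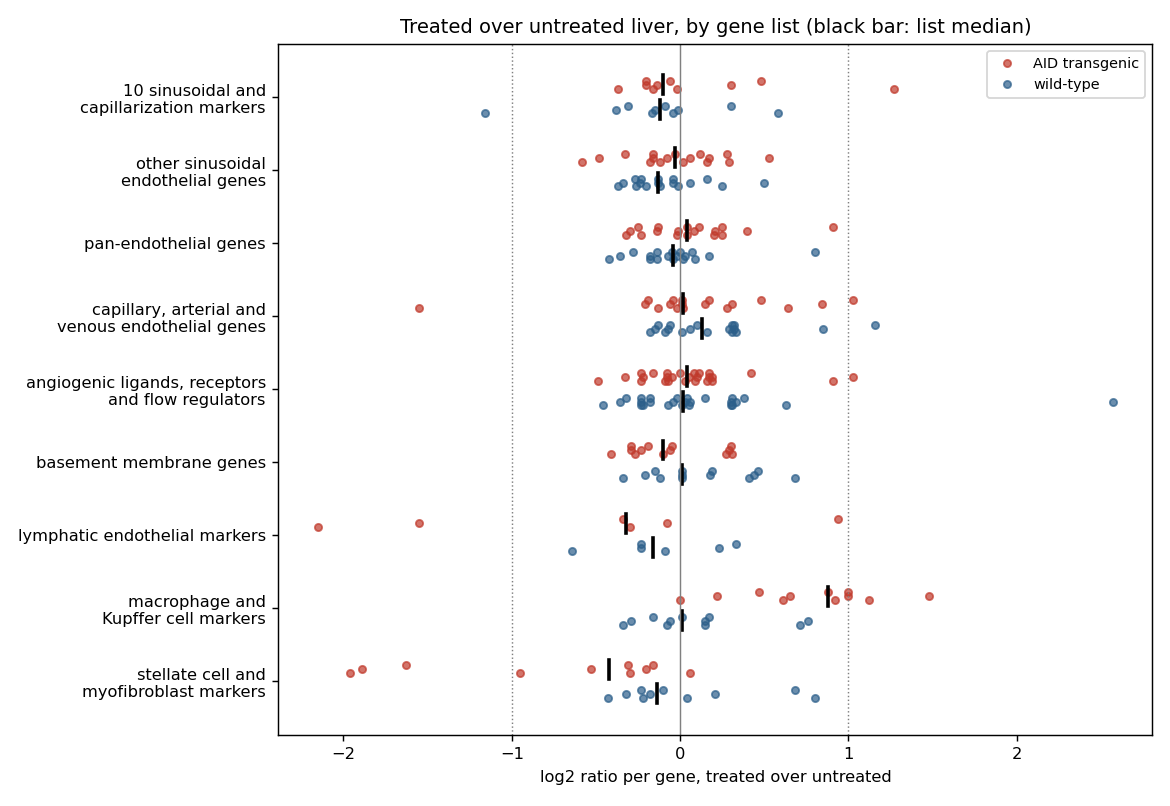
Log2 ratio of treated over untreated liver for the genes of each list, with AID transgenic in red above wild-type in blue. Black bars are list medians and dotted lines mark 2-fold. The medians of the sinusoidal, pan-endothelial, capillary and angiogenic lists lie between -0.13 and 0.13 on both arrays, and the macrophage list has a median of 0.88 in AID transgenic and 0.01 in wild-type mice.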

How the data were processed

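Each array came as 1 Agilent scanner file. Per the file headers, the authors' software gave for every spot a mean signal and a local background median (raw intensity) and a processed signal (intensity after background subtraction and dye normalization). Its log ratio, deposited on the log10 scale as red over green, carries an error, used here as a score. Its p-value per spot, as deposited, concerns a single array and was left aside. File headers name Feature Extraction 10.7.3.1, and the submitters' processing notes name 10.5.1.1. The value table the authors deposited equalled the scanner's log10 ratios on 44397 features, and its column medians were 0.

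In R 4.3.3 with limma 3.58.1, signals were corrected with normexp (offset 50) and normalized by loess within arrays, then by Aquantile for levels. Control spots and the 207 (AID transgenic) and 197 (wild-type) spots marked as outliers were left out. Spots were averaged per probe and probes per gene. Genes were tested where any of their probes stood well above background in a channel that entered the comparison. Where 1 channel was not, the fold is a lower bound against the higher of its own level and the lowest level well above background. Genes were named through RefSeq tables of GRCm38.p6 (26055 probes by accession, 3195 by symbol, 930 by synonym, 9249 unnamed). Further steps used Python 3.11.15, pandas 2.3.3 and numpy 2.4.6. Errors over 2 arrays were combined as root sums of squares. Over the probes of a gene the root sum of squares was divided by the number of probes.

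The 5 comparisons were the treatment ratio of each genotype, the difference of the ratios, and AID transgenic over wild-type in treated and in untreated livers. The 10 markers and the 12 other lists were chosen with earlier results of these data known. All members are named. For other lists the rule took genes past 2-fold and the 2 highest and 2 lowest ratios. Not all of these are printed, and Vegfa, Nos3, Klf2, Cdh5, Icam1 and Apln were added after their values were seen. Angpt2, Fcgr2b and Pdpn were also named outside the rule. Of 5 haematopoietic markers 0 reached 2-fold on either array. Of 4 hepatocyte markers 1, Apoa1, was lower on both.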

Additional observations from a re-analysis of the deposited data

Results flagged for a closer look

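Esm1 moved in opposite directions on the arrays, each time by more than its spot error. Its treatment ratio was 1.27 ± 0.27 in AID transgenic and -1.16 ± 0.28 in wild-type mice, a difference of 2.44 on the log2 scale that was not tested, with 1 array per genotype. By its bright probe Cd34 also had opposite signs, -0.60 ± 0.22 in AID transgenic and 1.22 ± 0.25 in wild-type mice, but its mean over both probes was within its error on each array.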

How the results depend on the processing

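The members counted at 2-fold, 1 in the main setting of each treatment comparison, were 1 in AID transgenic mice under every alternative tried. In wild-type mice the count was 0 with median centring, where Esm1 had -0.82, and 2 when only probes well above background in every channel, or only the brightest probe, were used, since Cd34 then had 1.22. Under these last 2 settings the count for the difference of the ratios was 2 and that for the untreated livers was 1, where Cd34 had 1.12. The count for the untreated livers was also 1 with a normexp offset of 0 and with the scanner's processed signals, where Esm1 had -1.19 and -1.41. Between the treated livers it was 1 throughout. Of 360 values of single members under alternatives, 319 moved by less than the spot error and 41 by more, and none past 2-fold changed sign. Many of the 319 could not move, so this count does not measure stability. Lifting the filter on dim probes changed no member, and choosing among probes could not change a gene read by 1 probe. The deposited ratios also repeat those of the scanner's processed signals. The treatment ratios of Esm1 ranged from 1.27 to 1.82 in AID transgenic and from -1.99 to -0.82 in wild-type mice. With 1 array per genotype no array could be left out, and no paired analysis was possible because each genotype has 1 array. Pecam1, Lyve1, Esm1 and the dim Cd34 probe have low signals, which limits their precision. Over all genes, 203 were higher and 158 lower at 2-fold in AID transgenic mice, against 620 and 269 with an offset of 0, 1518 and 474 with processed signals and 1358 and 53 with median centring. In wild-type mice these were 310 and 274, against 782 and 406, 1576 and 605, and 1729 and 102. The share that was higher was 69.7%, 76.2% and 96.2% in AID transgenic and 65.8%, 72.3% and 94.4% in wild-type mice under these settings. Without scaling between arrays, the share of AID transgenic over wild-type calls that were higher was 37% in treated and 40% in untreated livers, against 49.2% and 51.2%.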
